A study of Mus musculus with 42 samples.

Results

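The killer cell lectin-like receptor genes (Klr) and the C-type lectin genes (Clec) of mouse chromosome 6 were followed for their position relative to lamina-associated domains (LADs). Members were all protein-coding genes of chromosome 6 in GENCODE vM21 (mm10) whose symbol starts with Klr or Clec, which gave 48 of the 21938 protein-coding genes, 26 of them Klr and 22 Clec. A member was in a LAD of a library where its transcription start site lay within a LAD called in that library. The rule itself uses position and symbol and no LAD values.

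Lamin B1 (LMNB1) is a component of the nuclear lamina, and a LAD is a long stretch of chromatin enriched by chromatin immunoprecipitation (ChIP) of LMNB1. LADs were mapped in pieces of liver from wild-type C57Bl/6 mice kept in 12 h of light and 12 h of dark. Non-synchronized (NS) mice were killed at noon on the day before food restriction, and the others went without food for 24 h and had free access to food again from circadian time zero (CT0, lights on). They were killed at CT0, CT6, CT12, CT18, CT24 or CT30, which is the number of hours after refeeding. There were 2 mice at each of the 7 time points, 14 libraries in all, taken from groups of 7 mice. All groups shared strain and genotype, so time and feeding separated them. The sample labels call the mice female while the growth protocol calls them male, and no age was used here. Whole liver was used, so the LADs came from hepatocytes together with blood and sinusoidal cells, and the nuclei of natural killer cells could not be told apart from the rest. No expression values were analysed here, so the tissue label was not checked against marker genes.

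C-type lectin-like receptors are cell surface proteins of leukocytes. The Klra products (Ly49) bind major histocompatibility complex class I molecules on target cells, the Klrc products (NKG2A, C and E) pair with CD94 from Klrd1 and read the class I molecule Qa-1, and Klrk1 encodes the activating receptor NKG2D, which reads stress ligands. The Klrb1 receptors (NKR-P1) bind products of the Clec2 genes that lie among them. In liver these receptors are known from resident and circulating natural killer cells, whereas most Clec4 products are pattern receptors of macrophages and dendritic cells. The genes sit in clusters that arose by duplication, and the largest is known as the natural killer gene complex.

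Along chromosome 6 the members fell into 5 runs, in which neighboring start sites were less than 1 Mb apart. Klrg2 and Clec2l formed the first run, and Clec5a and Clec4f stood alone. Klrg1 and 9 Clec4 genes formed a run of 10 members over 1.01 Mb (chr6:122282882-123289870). The last run is called the complex here, and held 34 members over 2.62 Mb (chr6:128623533-131247362), from Klrb1a to Klra2. Its order was 10 Klrb1 and Clec2 genes, then 5 Clec1, Clec9 and Clec12 genes, then Klre1, Klrd1, Klrk1, Klrc3, Klrc2, Klrc1, Klri1 and Klri2, then the 11 Klra genes. Neighboring start sites in the complex were 46.8 kb apart in the median, and the widest gap was the 860.5 kb between Klra1 and Klra2.

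Promoters from both sides of the LAD border described below are shown so that the members can be read as sequence. Each run is the 250 bases before a RefSeq start site, 5′ to 3′ on the strand of the gene, from the GRCm38.p6 build. Clec2d, which encodes a ligand of NKR-P1 receptors, stands for the genes that were outside LADs in all libraries, Klrk1, Klrc1 and Klra17 for the stretch in which the border lay, and Klra4, Klra8 and Klra2 for the genes that were inside most often. Capitals mark TGTGGT or ACCACA, the core motif of RUNX factors on either strand, and GAGAG or CTCTC, a short GA repeat on either strand. The motifs cannot overlap one another, and overlapping matches of the same motif were counted separately.
Clec2d, chr6:129180365-129180614, plus strand: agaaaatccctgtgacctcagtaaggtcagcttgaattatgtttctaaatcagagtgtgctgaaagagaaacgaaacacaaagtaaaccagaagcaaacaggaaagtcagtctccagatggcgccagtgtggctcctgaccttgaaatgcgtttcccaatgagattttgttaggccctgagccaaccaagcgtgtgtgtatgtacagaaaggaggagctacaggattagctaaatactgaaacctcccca
Klrk1, chr6:129623865-129624114, minus strand: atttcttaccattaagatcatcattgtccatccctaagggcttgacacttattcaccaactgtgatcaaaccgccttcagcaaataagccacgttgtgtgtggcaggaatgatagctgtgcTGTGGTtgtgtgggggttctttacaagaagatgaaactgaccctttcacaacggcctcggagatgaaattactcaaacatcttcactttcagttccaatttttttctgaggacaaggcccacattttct
Klrc1, chr6:129678974-129679223, minus strand: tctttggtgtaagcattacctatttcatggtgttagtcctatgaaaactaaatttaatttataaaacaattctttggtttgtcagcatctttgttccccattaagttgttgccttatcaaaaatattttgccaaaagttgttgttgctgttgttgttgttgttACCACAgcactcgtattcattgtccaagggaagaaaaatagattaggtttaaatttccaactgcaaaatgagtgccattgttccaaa
Klra17, chr6:129876673-129876922, minus strand: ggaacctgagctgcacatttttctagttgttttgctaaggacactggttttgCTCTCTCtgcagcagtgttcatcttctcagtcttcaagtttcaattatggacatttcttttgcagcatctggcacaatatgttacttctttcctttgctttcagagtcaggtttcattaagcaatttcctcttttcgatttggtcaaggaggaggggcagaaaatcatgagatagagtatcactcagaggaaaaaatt
Klra4, chr6:130067272-130067521, minus strand: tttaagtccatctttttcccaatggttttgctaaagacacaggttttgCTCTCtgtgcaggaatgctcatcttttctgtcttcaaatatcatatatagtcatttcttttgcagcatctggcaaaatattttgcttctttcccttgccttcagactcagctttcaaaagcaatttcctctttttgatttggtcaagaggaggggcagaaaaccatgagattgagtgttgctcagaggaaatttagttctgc
Klra8, chr6:130129899-130130148, minus strand: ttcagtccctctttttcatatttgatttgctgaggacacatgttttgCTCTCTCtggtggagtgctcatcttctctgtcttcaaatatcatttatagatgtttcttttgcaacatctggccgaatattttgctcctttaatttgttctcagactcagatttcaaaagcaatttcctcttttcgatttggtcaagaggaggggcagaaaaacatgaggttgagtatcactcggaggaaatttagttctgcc
Klra2, chr6:131247363-131247612, minus strand: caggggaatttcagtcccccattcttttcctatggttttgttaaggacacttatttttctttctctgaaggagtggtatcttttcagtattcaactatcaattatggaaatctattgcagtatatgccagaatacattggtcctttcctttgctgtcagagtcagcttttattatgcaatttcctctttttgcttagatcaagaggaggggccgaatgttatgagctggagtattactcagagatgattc

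A RefSeq start site lay within 1000 bp of the GENCODE start site for 39 of the 48 members. The RUNX core was present in these 250 bases in Klre1, Klrk1, Klrc3, Klrc2 and Klrc1 and absent in Klri1. Of the 10 Klra promoters that were matched, 1 (Klra1) held it. The others with it were Clec5a, Clec4a1, Clec4a3, Clec4e, Klrb1a and Klrb1c. Over all 39 promoters 12 (30.8%) held the RUNX core, against 14.2% of one promoter for each of 27025 genes. The GA repeat was present in 8 of 10 Klra promoters and in 21 of 39 (53.8%) promoters of members, against 54.5% of all genes. Promoters of duplicated genes share sequence and are not independent. The promoters of Klra4 and Klra8, printed above, were 84.5% identical in a global alignment, the highest of 45 Klra pairs, and those of Klra9 and Klra3 were 83.6% identical. The median of the Klra pairs was 50.3%. The alignment ran end to end over the 250 bases, so an offset between start sites can lower the identity. Klra6 and Klra3 share a long similar stretch at different distances from their start sites, and their value was 39.7%. No value for unrelated promoters is given, so the median is not a measure of how far the Klra promoters have diverged. GC content was 37.2% in the median of the 10 Klra promoters and 39.2% over the 39 members, against 52% for all genes. A match is a string of letters and was not tested as a binding site.

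Position along the complex ordered the members by the number of libraries in which they were in a LAD. The 10 Klrb1 and Clec2 genes and the 5 Clec1, Clec9 and Clec12 genes of the complex were in a LAD in 0 of 14 libraries. Klre1, an NK receptor subunit at the start of the next group, was in a LAD in 1 library, Klrd1 in 5, Klrk1 and Klrc3 in 6, Klrc2, Klrc1 and Klri1 in 7, and Klri2 in 8. Klra17 was in a LAD in 9 libraries and each of the other 10 Klra genes in 10. From one gene to the next this number rose at 7 steps, was equal at 26 and fell at 0. In each library at most 1 LAD border lay within the complex, with the LAD on its Klra2 side. Of all 48 members, 22 were in a LAD in no library, against 83.3% of protein-coding genes, and 26 were in a LAD in at least 1 library, against 16.7%. For at least 5 libraries the count was 18 members against 9.14% of genes, for at least 10 libraries it was 10 members against 5.28%, and 0 members were in a LAD in all 14 libraries, against 0.83%.

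**Figure D1:**
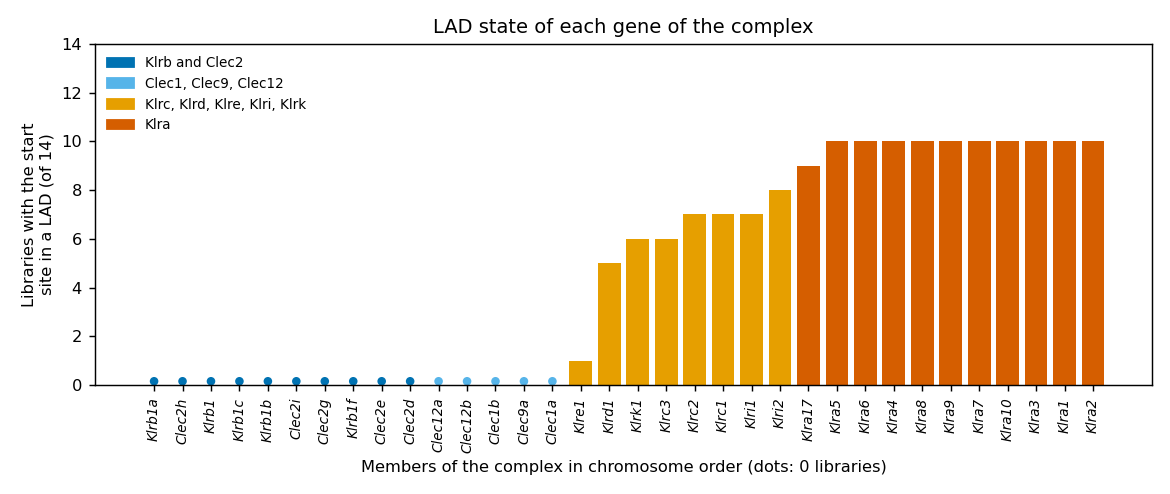
Number of libraries, of 14, in which the start site of each gene of the complex lay in a LAD, with the 34 genes in chromosome order and colored by group. The 15 genes on the left are at 0 (dots), the bars rise from 1 at Klre1 to 9 at Klra17, and the last 10 Klra genes are at 10.

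In the non-synchronized mice the 2 livers differed over the part of the complex from Klrd1 to Klra2. NS replicate 1 had 0 of 48 members in a LAD (4.02% of protein-coding genes in the same library), and NS replicate 2 had 18 (7.97%). The same was found at CT0, with 0 members in replicate 1 (5.25%) and 18 in replicate 2 (8.19%). The 18 genes were the same at both time points, namely all Klra genes and Klrd1, Klrk1, Klrc3, Klrc2, Klrc1, Klri1 and Klri2. Of all genes, 2.74% were in a LAD at NS and CT0 in replicate 2 and not in replicate 1.

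From CT6 to CT24 LADs lay over the Klra genes in both mice of each time point. CT6 replicate 1 had 17 members in a LAD (6.92% of all genes) and replicate 2 had 18 (9.89%). CT12 replicate 1 had 15 (8.1%) and replicate 2 had 18 (9.43%). The 2 mice thus differed at these time points by 1 and 3 members of the Klrd1 to Klrc3 stretch. CT18 replicate 1 had 10 members in a LAD (9.28%) and replicate 2 had 19 (10.4%), and 7 of these 19 were Clec4 genes outside the complex. CT24 replicate 1 had 19 members (8.99%) and replicate 2 had 11 (7.88%). At CT30 both replicate 1 and replicate 2 had 0 members in a LAD (6.16% and 5.58%).

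Counting only genes in a LAD in both mice of a time point, the NS and CT0 mice shared 0 members (2.35% and 3.72% of all protein-coding genes). There were 17 members for CT6 (5.89% of genes), 15 for CT12 (7.12%), 10 for CT18 (7.39%) and 11 for CT24 (6.53%). The CT30 mice again shared 0 (4.41%). Of the 48 members, 10 were in a LAD in all 8 libraries from CT6 to CT24 and in neither CT30 library, against 0.283% of all genes, and these were Klra5, Klra6, Klra4, Klra8, Klra9, Klra7, Klra10, Klra3, Klra1 and Klra2. Between CT24 and CT30 alone, 11 members were in a LAD in both CT24 mice and in neither CT30 mouse (2.11% of genes), and 0 members showed the converse (0.565%).

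**Figure D2:**
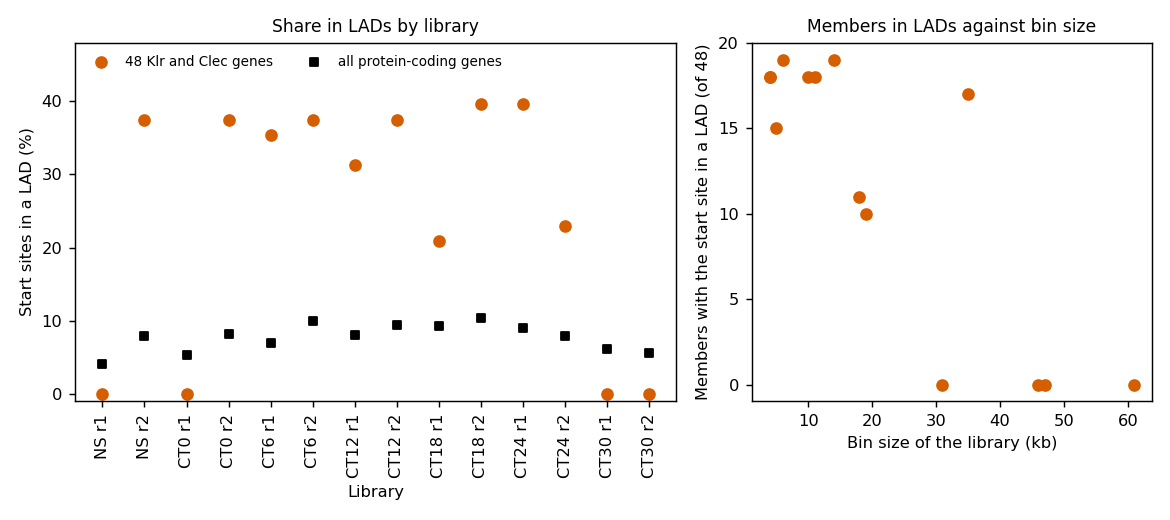
Left, percentage of the 48 Klr and Clec genes (circles) and of all protein-coding genes (squares) with the start site in a LAD in each library. Right, number of members in a LAD against the bin size of the library in kb. The members sit at 0 in NS replicate 1, CT0 replicate 1 and both CT30 libraries, where all protein-coding genes sit between 4.02% and 6.16%.

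The 4 libraries without a member in a LAD were among the 5 with the widest bins. The bin size is the grid on which LADs were called in a library, read here as the largest number of kb dividing its LAD starts. It was 61 kb in NS replicate 1, 47 kb in CT0 replicate 1, 31 kb and 46 kb in the CT30 replicates and 35 kb in CT6 replicate 1, which had 17 members in a LAD. The other 9 libraries had bins of 4 to 19 kb and 10 to 19 members in a LAD. Total LAD length was also lowest in the 4 libraries without a member in a LAD. It was 335.3 Mb in NS replicate 1, 423.8 Mb in CT0 replicate 1 and 405.4 and 392.4 Mb in the CT30 replicates. In CT6 replicate 1 it was 495.2 Mb, and in the other 9 libraries 526.5 to 663 Mb. Time and bin size overlapped at CT30, where both libraries had wide bins, and cannot be told apart there. Without the 5 libraries with wide bins, the mean share of members in a LAD was 33.8% ± 7.2 (SD, n = 9), compared with 24.3% ± 16.9 (SD, n = 14) over all libraries. The number that the deposited names give to a library, 1, 2 or 3, went with this in part, with 0 to 19 members in the 6 libraries numbered 1, 0 to 19 in the 5 numbered 2 and 15 to 18 in the 3 numbered 3. The part of bin size, of total LAD length or of library number in the result was not tested.

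Each of the 10 libraries with LADs over the Klra genes had a single LAD of 3.21 to 4.3 Mb there, which entered the complex from its far side. Its left border lay between 0.946 and 1.26 Mb from the start site of Klrb1a, a spread of 314 kb, and its right border 1.69 to 2.64 Mb past the start site of Klra2. The left border thus lay between the start sites of Clec1a and Klra5. The 9 members from Klre1 to Klra17 lie in that stretch and differed in state among these 10 libraries, while Klra5 was inside in all 10.

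**Figure D3:**
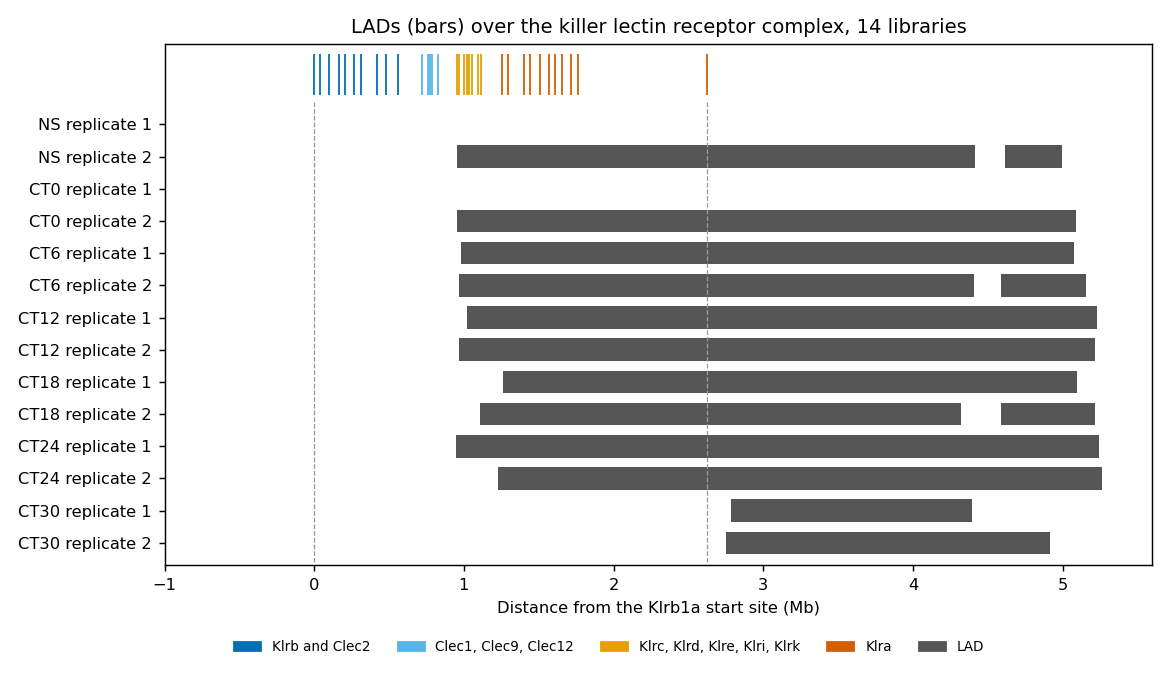
LADs of the 14 libraries (bars) against the distance from the Klrb1a start site in Mb, with the start sites of the 34 members as colored ticks and dashed lines at the first and last of them. The LADs of 10 libraries begin between 0.946 and 1.26 Mb and reach past Klra2, those of CT30 begin past Klra2, and NS replicate 1 and CT0 replicate 1 have none in this window.

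At NS and CT0, the LAD of replicate 2 began at base 129580001 in both libraries, 2.1 kb past the start site of Klre1. The CT6 border lay 27.1 kb past that start site in replicate 1 and 13.1 kb in replicate 2. For CT12 the values were 67.1 kb and 12.1 kb. These borders left Klre1 outside, and they ran within 13.2 kb of the start site of Klrd1, the CD94 gene, in all of these 6 libraries but CT12 replicate 1, where Klrd1 was 53.2 kb outside.

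At CT18 the border lay 306.1 kb past the Klre1 start site in replicate 1, between Klra17 and Klra5, and 154.1 kb in replicate 2, between Klri1 and Klri2. At CT24 it lay 7.9 kb before the Klre1 start site in replicate 1 and 274.1 kb past it in replicate 2, between Klri2 and Klra17. Replicate 1 minus replicate 2 was 14 kb for CT6, 55 kb for CT12, 152 kb for CT18 and -282 kb for CT24. The 2 CT24 mice alone thus spanned most of the 314 kb over which the border lay in the 10 libraries, and the order of the replicates was not the same at each time point.

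**Figure D4:**
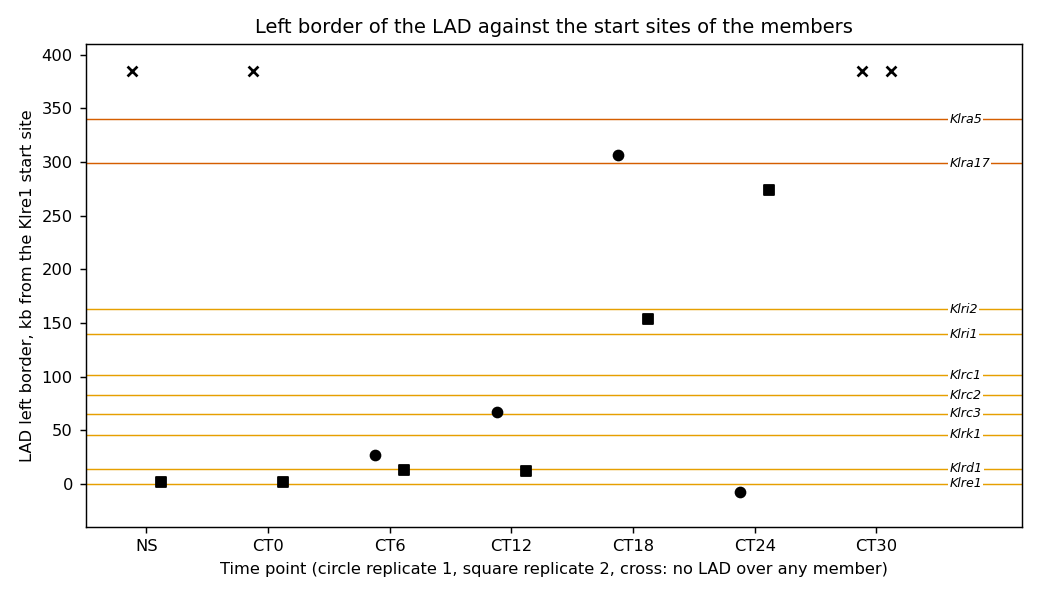
Left border of the LAD over the Klra genes by time point, in kb from the Klre1 start site (circles replicate 1, squares replicate 2), with horizontal lines at the start sites of 10 members. Crosses at the top mark the 4 libraries with no LAD over a member; the borders of CT6 and CT12 sit near Klre1 to Klrc3, and those of CT18 and CT24 spread from 7.9 kb before to 306.1 kb past Klre1.

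The libraries without members in LADs were of 2 kinds. At CT30 the LAD was still present beyond the complex, and began 161.6 kb past the start site of Klra2 in replicate 1 and 128.6 kb in replicate 2. Its right border lay 1.77 and 2.29 Mb past Klra2, within the range of the other libraries. In NS replicate 1 and CT0 replicate 1, by contrast, 0 LADs ended past the start site of Klra2, and the nearest LAD lay on the other side, 16.6 to 19.2 Mb from the 34 members in NS and 16.4 to 19.1 Mb in CT0.

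The distance of a start site to the nearest LAD border, taken as negative inside a LAD, gave a graded value for each member. Klrb1a, the first gene of the complex and 1 of the NKR-P1 receptors, was 946.5 kb from a border at the nearest and 1065 kb in the median of the 14 libraries. Clec1a, the last member that was outside LADs in all libraries, came within 118 kb. Klrk1, encoding NKG2D, was outside at 21.1 kb in CT12 replicate 1 and inside at -53.9 kb in CT24 replicate 1, and it was outside by 108.1 to 260.1 kb in both CT18 libraries and in CT24 replicate 2.

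Klra8, which encodes Ly49H, the activating receptor for a cytomegalovirus protein, lay deep in the LAD. Its distance was -549.9 kb in NS replicate 2 and in CT0 replicate 2, -524.9 and -538.9 kb at CT6, -484.9 and -539.9 kb at CT12, -245.9 and -397.9 kb at CT18 and -559.9 and -277.9 kb at CT24. At CT30 it was 1279 and 1246 kb from a border on the outside. Klra2, at the far end, was -1363 to -1677 kb inside in the 10 libraries and 161.6 and 128.6 kb outside at CT30. Klra17, the first of the Klra genes, was outside by 7.3 kb in CT18 replicate 1 and inside at -24.7 kb in CT24 replicate 2. All 11 Klra genes lie on the minus strand, so their start sites face the Klra2 end.

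LADs covered 63.5% of the complex in NS replicate 2 and 0% in NS replicate 1, with the same 2 values at CT0. Coverage was 62.6% and 63.1% at CT6, 61.1% and 63.2% at CT12, 52% and 57.8% at CT18, and 63.9% and 53.2% at CT24. It was 0% in both mice at CT30. The 8 libraries of CT6 to CT24 did not overlap with those of CT30, while CT0 held 1 library at either level. As mean ± SD (n = 2), CT0 had a coverage of 31.8% ± 44.9, CT6 of 62.9% ± 0.377, CT12 of 62.1% ± 1.48, CT18 of 54.9% ± 4.1 and CT24 of 58.6% ± 7.6.

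Between the 6 circadian time points the difference in coverage was not past the threshold against the spread between mice (F ratio 3.54, exact permutation test over 10395 divisions of the 12 libraries, p = 0.192). This rested on the 2 CT0 mice. Without CT0 replicate 1 the F ratio was 78, and without CT0 replicate 2 it was 102, with the CT0 mouse that was left assumed to vary like the others. In both runs CT30, which had no coverage, stood apart from CT6 to CT24. Without CT0 replicate 2 so did CT0, since the mouse that was left, replicate 1, had 0% coverage. Both CT30 libraries had wide bins, as had CT0 replicate 1, so time and bin size cannot be told apart in these F ratios. Between NS and CT0 the difference in mean coverage was 0 percentage points (exact two-sided permutation test of 2 against 2 mice, p = 1), where the smallest p such a test can give is 0.33. Each of these 4 libraries decided the value, which was 31.8 percentage points without NS replicate 2 or CT0 replicate 1 and -31.8 without NS replicate 1 or CT0 replicate 2.

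Gene by gene, 0 of the 26 members whose state varied between the CT libraries passed the exact permutation test with Benjamini-Hochberg adjustment over 3180 genes, and 0 of those genes did (0%). At an unadjusted p below 0.05 there were 34 genes (1.07%) and 0 members. The smallest exact permutation p of a member was 0.273, shared by the 10 Klra genes named above, and 0.0216 was the smallest of any gene. These Klra genes were inside in 9 of the 12 libraries, and 0.273 is the lowest exact permutation p open to such a gene. Klre1 and the 7 Clec4 genes, inside in 1 library, cannot pass either. Klrk1 and Klrc3, inside in 5 of the 12, and Klri2, inside in 7, also cannot reach an unadjusted p below 0.05. For these members not passing was fixed in advance, so the test of state cannot decide whether their state changed with time. For the other varying members, a p of 0.0216 over 3180 genes could pass the adjustment only if a large share of genes reached such a p. A state of 0 or 1 in 12 libraries gives coarse p-values, and after adjustment the exact permutation p was 1 for all 3180 genes. The signed distance was tested in 20807 genes, of which 0 (0%) passed the adjusted test and 1474 (7.08%) had an unadjusted p below 0.05. Of the 48 members 0 passed and 0 had an unadjusted p below 0.05, with exact permutation p from 0.278 for Clec4f to 0.581 for Clec4e. Adjusted over all genes the exact permutation p of the members was 0.863 to 0.884. Without CT0 replicate 1 the 34 genes of the complex had an unadjusted p below 0.05 in the distance test (7.35% of all genes), and without CT0 replicate 2 the same 34 did (16.9%). These genes share 1 border, so they count as 1 observation, and 0 passed after adjustment in either case. For the state of 0 or 1, 10 members had such a p without CT0 replicate 2 (3.06% of genes) and 0 without CT0 replicate 1 (2.34%). Without CT0 replicate 2, CT0 stood for replicate 1 alone, whose nearest LAD lay 16.4 to 19.1 Mb from the genes of the complex. A single library adds nothing to the spread within its time point. The p-values of the runs without a CT0 library are therefore not read as results.

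The run of Clec4 genes was in a LAD in 1 library. In CT18 replicate 2 a LAD of 1.29 Mb (chr6:122964001-124254000) held the start sites of Clec4a4, Clec4b1, Clec4a2, Clec4b2, Clec4n, Clec4d and Clec4e. Clec4n, Clec4d and Clec4e encode Dectin-2, MCL and Mincle, receptors of myeloid cells for fungal and mycobacterial glycans and glycolipids. In that library Clec4a1 was 42.2 kb and Clec4a3 11.5 kb outside the LAD, and Clec4e was inside at -325.9 kb. In the other 13 libraries no LAD touched the stretch from Clec4a1 to Clec4e, but in some a LAD lay near its Clec4e end. Clec4e was 90.1 and 70.1 kb from it in CT12 replicates 1 and 2, and 82.1 kb in CT24 replicate 2. The distance was 108.1 kb in CT6 replicate 2, 138.1 kb in NS replicate 2 and 466.1 kb in CT0 replicate 2. In the remaining libraries it was at least 6280 kb. Klrg1, an inhibitory receptor for cadherins, was in a LAD in 0 libraries and came no nearer than 681.1 kb. The other CT18 mouse had none of these genes in a LAD, so the 2 mice of the time point differed.

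The 4 members in the short runs stayed far from LADs in all 14 libraries. Klrg2 and Clec2l were at least 3088 and 3062 kb from a border, and Clec5a, a receptor of myeloid cells, at least 1139 kb. Clec4f, known as a marker of Kupffer cells, the resident macrophages of the liver, was 1641 to 3502 kb away.

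The exact sequence of states over the 14 libraries was used to find genes with the same pattern. The pattern of the 10 Klra genes was shared by 27 other protein-coding genes, of which 25 were on other chromosomes, and Magohb and Styk1 lay on chromosome 6. The patterns of Klrd1, of Klrk1 and Klrc3, and of Klrc2, Klrc1 and Klri1 were shared by 0 other genes. Klri2 had the same pattern as Gm156, and Klra17 as Gm17631, and both of these lie among the members. The Clec4 pattern was shared by 53 other genes, of which Vmn2r19 was on chromosome 6.

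Genes that are not members but lie in or act with the family were compared by count. In the complex, 9 other protein-coding genes lie between the first and last member, and 7 of them, among them Cd69, an activation marker, and Olr1, a lectin-like scavenger receptor, were in a LAD in 0 libraries. Gabarapl1, the nearest of them to Klre1, came within 0.0368 Mb of a LAD, and Olr1 within 0.0628 Mb. The other two were Gm156 with 8 libraries and Gm17631 with 9. Counts of such lists are read against the 83.3% of all protein-coding genes that were in a LAD in 0 libraries. Of 8 adaptors and signaling genes of these receptors (Hcst, Tyrobp, Fcer1g, Syk, Card9, Ptpn6, Zap70 and Vav1) 0 were in a LAD in any library. Of 11 ligand genes 10 were in a LAD in 0 libraries and Cdh2, a cadherin that binds the Klrg1 product, in 1. Of 8 Clec genes on other chromosomes 0 were in a LAD in any library.

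GC content was lower on the side of the complex that LADs covered. The stretch from Klrb1a to Clec2d had 41.7% GC, from Clec12a to Clec1a 39.1%, from Klre1 to Klri2 37.3%, and from Klra17 to Klra1 38%, against 41.4% for chromosome 6. In bins of 50 kb, GC content was 38.9% to 44.1% (median 40.5%) in the 19 bins of the complex that no LAD covered by at least 50%. It was 36.4% to 39.4% (median 37.9%) in the 6 bins so covered in 1 to 9 libraries, and 36.4% to 42.1% (median 37.7%) in the 27 bins covered in 10, so the ranges overlapped. Repeat-masked bases made up a median of 35.8%, 33.9% and 50.4% of these bins. In the gap between Klra1 and Klra2, which holds no member, 55% of bases were repeat-masked.

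**Figure D5:**
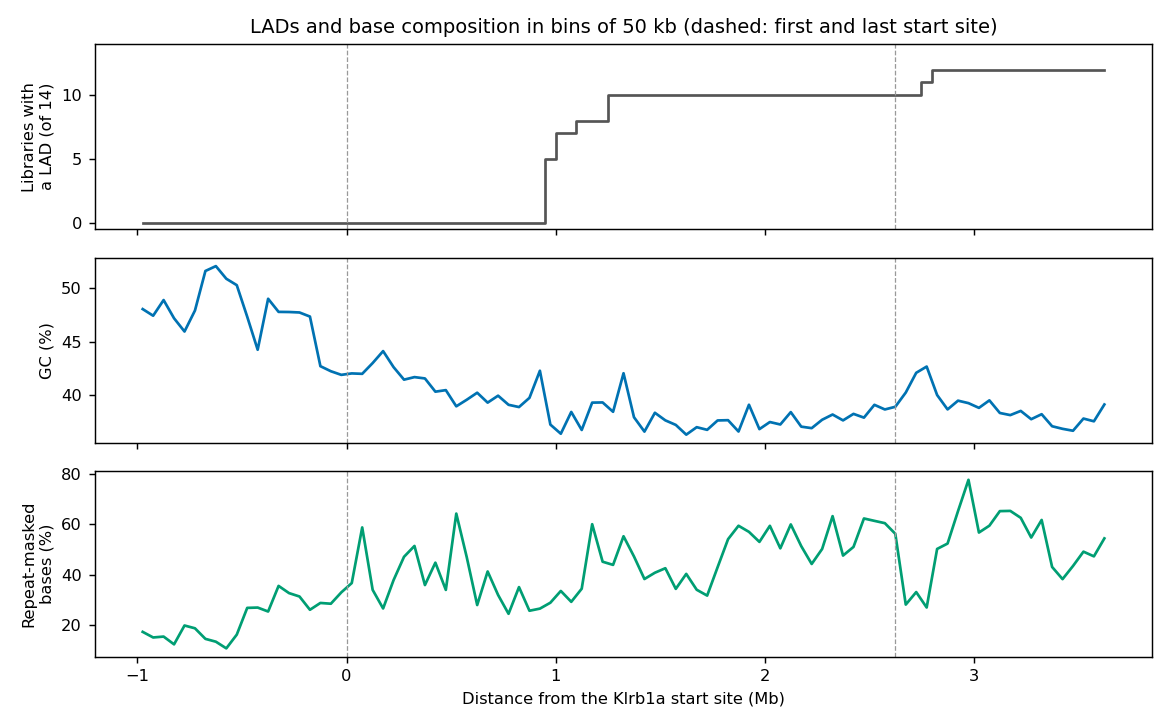
Number of libraries with a LAD over at least 50% of each 50 kb bin (top), GC content in percent (middle) and repeat-masked bases in percent (bottom) against the distance from the Klrb1a start site in Mb. The first and last start site of the complex are dashed; GC content falls before the first LAD border, and the library count climbs from 0 to 10 between 0.946 and 1.26 Mb.

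Duplicated sequence was frequent in the complex and can affect where reads map. Of all 50-base words of the complex, counted on both strands, the share found more than once was 8.52% from Klrb1a to Clec2d, 0.622% from Clec12a to Clec1a, 14.5% from Klre1 to Klri2, 16.7% from Klra17 to Klra1 and 25.1% in the gap before Klra2. The stretches with LADs were thus also those with more repeated words, and the part of read mapping in the LAD calls was not tested.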

How the data were processed

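LMNB1 ChIP-seq LADs of 14 mouse livers were analysed, 2 mice per time point, as deposited on mm10. The values in each file are LAD starts and ends in base pairs, which the authors made by mapping with Bowtie, removing duplicates with Picard, matching ChIP and input reads in number on every chromosome and calling domains with EDD for each mouse separately. Read depth and scores are unknown here, so no counting interval is given, and the spread comes from 2 mice per time point. Inputs and RNA-seq were not analysed here.

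Genes were the 21938 protein-coding genes of GENCODE vM21 outside the mitochondrion. Distances run from the start site to the nearest LAD border. Tests were F ratios among the 6 time points from CT0 to CT30, with all 10395 divisions of the 12 libraries into 6 pairs. They were fitted on all genes with Benjamini-Hochberg adjustment (threshold 0.05) in Python 3.11.15 with NumPy 2.4.6, and were tested on simulated data. A total of 1131 genes without a LAD on their chromosome in some CT library had no distance. Named genes were the first and last of each run, those in 5 to 9 libraries, and those with the most and fewest libraries. The others, and the example values of Klra8 and of the Clec4 genes, were picked after values were seen. Members and lists were chosen with earlier results of these data known. Base composition was read from GRCm38.p6, whose lower-case letters mark repeats. Promoters were aligned globally.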

Additional observations from a re-analysis of the deposited data

How the results depend on the processing

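The share of members in a LAD, 24.3% as the mean of 14 libraries, was 42.9% with Klr symbols only and 2.27% with Clec symbols only. Counting a gene in either mouse of a time point instead of in both gave 15.7 members in place of 7.57 as the mean of 7 time points. The F ratio of coverage of the complex across CT0 to CT30 was 3.54, and it ranged from 1.9 to 102 when 1 library was left out. It was 78 without CT0 replicate 1 and 102 without CT0 replicate 2, and it was below 3.54 in the other 10 cases. With either CT0 mouse left out, CT30, where both libraries had wide bins, stood apart from CT6 to CT24. Without CT0 replicate 2, the CT0 library that was left had 0% coverage and stood apart as well. Of the values that answer a comparison, 69 recomputed values kept their direction and side of the threshold, or moved by less than the spread between libraries. Among them, 0 members passed the per-gene tests under any alternative run. For the state of 0 or 1 this does not measure stability. In the main run the lowest exact permutation p open to the 10 Klra genes was 0.273. The 69 also hold the difference between CT0 and NS with 1 library left out. It was 31.8 or -31.8 percentage points, against 0 in the main run, so it was not stable although within the spread between mice. The distance tests without a CT0 library are among the 69 as well, although the unadjusted p of members moved there. Leaving out the libraries with wide bins (33.8%) and using only members more than 1 bin from a border (24.2%) were chosen after seeing the data.

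With the replicate number as a block the F ratio of coverage was 3.47 (exact permutation p = 0.233), the difference between CT0 and NS was 0 percentage points, and 0 members passed the per-gene tests. The correlation of deviations between same-numbered libraries was over 0.1 in 7 of 21 pairs of time points (-0.107 to 0.453). Its mean was above 0 for 6 of 7 time points. It was highest for NS with CT0, the time points whose replicates split alike in the complex. Whether the numbers mark pairs or batches of mice was not tested.

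With 2 mice per time point and no score per LAD, a border shift smaller than a bin was not detectable, and 0.714 members per library on average lay within 1 bin of a border.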

Other observations

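Pseudogenes of the complex were not members and followed the genes around them. Clec2j, Clec2f, Klrb1-ps1 and Clec7a, which the annotation lists as a polymorphic pseudogene and which is known as Dectin-1, were in a LAD in 0 of 14 libraries. Klra11-ps, Klra14-ps and Klra13-ps, in the Klra stretch, were in a LAD in 10.

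Past Klra2 lie 24 Tas2r genes, which encode bitter taste receptors. They were in a LAD in 8 to 12 libraries, with a median of 12. The median was above the 10 libraries of the Klra genes other than Klra17, and the lowest value, 8, was below. The CT30 LADs that began past Klra2 were in this stretch.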
